A study of Rattus norvegicus with 8 samples.

Results

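The nuclear genes of oxidative phosphorylation were followed in rat hypothalamus through the 3′ ends of their polyadenylated RNA. A gene entered the group when the deposited table gave it the biotype protein_coding, placed it outside the mitochondrial chromosome and gave it a symbol starting with Nduf, Uqcr, Atp5 or Sdh and a letter or digit, or with Cox, a digit from 4 to 8 and a letter. The rule reads names only, and no measured value entered it. It found 76 of the 12255 genes in the table, with 49793 reads at 184 polyadenylation sites. The group held 7 core subunits, 25 accessory subunits and 5 assembly factors of complex I, the related gene Ndufa10l1, 4 subunits and 2 assembly factors of complex II, 8 genes of complex III, 9 of complex IV, 13 of complex V, and Atp5s and Atp5sl, which were kept apart.

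The libraries were made from hypothalamus RNA of 8 Long-Evans rats, all adult males, by whole transcriptome termini site sequencing (WTTS-seq), a method that reads the junction of a transcript and its poly(A) tail. The control group was 4 rats fed standard rodent chow, and the obesity group was 4 rats with free access to a high fat diet, labelled as diet-induced obesity. Both diets were given for 36 days. Control and obesity libraries carry the numbers 1 to 4, but the meaning of a number is not in the labels, nor is it stated whether each library was made from 1 rat alone.

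Oxidative phosphorylation passes electrons from NADH and succinate through complexes I to IV of the inner mitochondrial membrane to oxygen, and the proton gradient built on the way drives ATP synthesis by complex V. Most subunits are encoded in the nucleus and imported, while a small set of core subunits of every complex except II is encoded by the mitochondrial genome. Brain tissue depends on this pathway for most of its ATP, and the mitochondria of hypothalamic neurons are studied for their part in the sensing of nutrients.

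The obesity libraries carried fewer reads of these genes on average, with an exception in obesity library 2. In library order, from 1 to 4, the 76 genes took 0.384%, 0.408%, 0.507% and 0.395% of all reads in control. In obesity they took 0.267%, 0.428%, 0.353% and 0.284%. Obesity libraries 1, 3 and 4 lay below all controls, and obesity library 2 lay within the control range. The group means were 0.423% ± 0.0565 in control and 0.333% ± 0.0737 in obesity (SD, n = 4), so the difference of -0.0902 percentage points was larger than the pooled SD of 0.0656 points. The 95% Wilson interval of a share was at most 0.0117 points to either side, which covers counting error only, because the amplified reads carry no molecular identifiers. Without obesity library 2 the difference was -0.122 points, and without control library 3 it was -0.0624. A share of bulk tissue RNA cannot tell fewer cells of a type from less RNA in each cell.

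**Figure D1:**
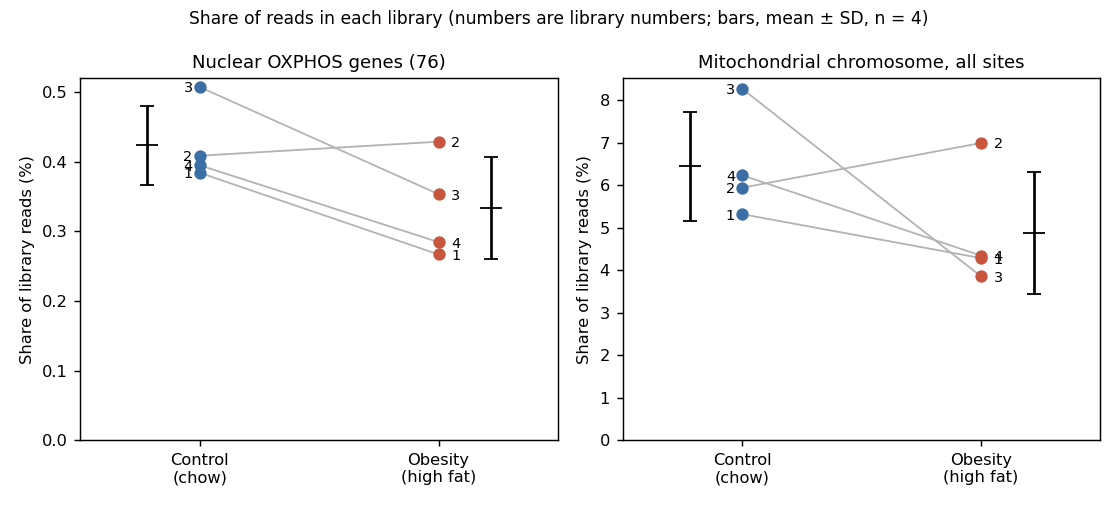
Share of library reads (%) at the 76 nuclear oxidative phosphorylation genes (left) and at all sites of the mitochondrial chromosome (right), for each library; grey lines join libraries with the same number, and bars are mean ± SD (n = 4). In both panels obesity library 2 sits among the controls, at 0.428% and 6.99%, and the other 3 obesity libraries sit below every control.

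Other measures also differed between the libraries, and only some of them followed these shares. In the same library order, all sites of the mitochondrial chromosome took 5.32%, 5.94%, 8.27% and 6.23% of the reads in control. In obesity they took 4.29%, 6.99%, 3.85% and 4.34%, and obesity library 2 was again the only obesity library inside the control range. The oxidative phosphorylation genes of that chromosome, taken alone, held 1.01% to 1.56% of the reads in control. By this narrower share obesity library 4, at 1.04%, lay inside the control range, and obesity library 2, at 1.69%, lay above every control. Obesity libraries 1 and 3 lay below every control. The tissue label could be checked with 9 of 10 hypothalamus markers, whose summed level was 1214 to 1631 CPM (the read count scaled to the size of its library) in control and 1002 to 1253 CPM in obesity. None of these 9 was at 0 throughout, but no gene of the table could be, because the lowest site total was 30 reads. Gh1, the growth hormone gene of the anterior pituitary, had 87 reads in obesity library 2 and 0 or 1 in the other libraries. The 2 pituitary markers present summed to 115 CPM there and to at most 7.04 CPM elsewhere. Ttr, a choroid plexus gene, had 144 reads in obesity library 4 and at most 2 in the others. The 6 neuron markers summed to 4487 to 4910 CPM in control and 3904 to 5078 CPM in obesity, the 6 oligodendrocyte markers to 16785 to 21576 and 12971 to 20390 CPM, and the 6 astrocyte markers to 1128 to 1550 and 977 to 1359 CPM. Microglia markers, of which 3 of 6 were present, summed to 79.8 to 115 CPM in control and 34.2 to 94.5 CPM in obesity. The 3 thalamus markers summed to 65.7, 79.4, 122 and 55 CPM in control and 34.2, 117, 36.8 and 60.1 CPM in obesity. Thalamus, oligodendrocyte and microglia sums were each highest within their diet in control library 3 and obesity library 2. Those libraries also had the largest share of the 76 genes in their diet. The oligodendrocyte sum was mostly Mbp, at a mean of 13865 CPM, against 1597 CPM for Mobp, the next marker. In each of these lists some single markers peaked in other libraries. The neuron, astrocyte, endothelial, red blood cell and hypothalamus sums were not highest in obesity library 2. Endothelial markers (3 of 4 present) summed to 45.2 to 84.1 CPM in control and 41.3 to 111 CPM in obesity, and red blood cell markers (2 of 3) to 18.7 to 44.6 and 14.8 to 62.1 CPM. The part of these differences in the results below was not tested, and the counts over the 76 genes and the medians of the complexes are also given without obesity library 2. Library totals ran from 1417531 to 1957726 reads.

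Gene by gene, estimates were tilted downward, and no gene passed the adjusted test when library numbers were ignored. In edgeR's quasi-likelihood test over all genes, 66 of the 76 genes (86.8%) had a lower estimate in obesity, against 49.2% of all genes. Their median log2 fold change was -0.35, with quartiles of -0.57 and -0.17, and the median of all genes was 0.01. None of the 76 genes had an adjusted p under 0.1, and neither had any of the 12255 genes (0%). By the DESeq2 Wald test the count was also 0 of 76, with 0.0245% of all genes called. At an unadjusted p under 0.05, 8 of the 76 genes (10.5%) were lower, against 2.52% of all genes, and 1 (Ndufaf2) was higher, against 2.77%. DESeq2 gave 9 lower and 1 higher, against 2.78% and 3.27% of all genes. The count of lower genes was 18 without obesity library 2, 5 without control library 1, control library 3 or obesity library 3, and 3 without obesity library 4. The p-values measure the spread between these libraries, since the labels do not describe how samples were taken.

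Libraries of the same number varied together, and blocking on the number gave more lower genes. With the block, 20 of the 76 genes (26.3%) were lower at an unadjusted p under 0.05, against 5.83% of all genes, and 1 was higher, against 5.03%. At an adjusted p under 0.1, Cox6a1 alone was called, against 0.122% of all genes. Within number 1, 51 of the 76 genes were lower in the obesity library, with a median log2 ratio of -0.44. Number 2 differed from the rest, with 37 lower and 39 higher and a median of 0.08. Numbers 3 and 4 had 61 and 62 lower genes and medians of -0.52 and -0.53. The median ratio of all genes was within 0.02 of 0 in every number. Lower values in 4 of 4 numbers were found for 13 of the 76 genes, against 9.56% of all genes, and higher values in 4 of 4 for Ndufaf2 alone, against 9.24%. When both libraries numbered 2 were left out, a setting chosen after the data were seen, 71 genes had lower estimates, against 51.3% of all genes, and the median was -0.54. In that setting 26 genes were lower and 0 higher at an unadjusted p under 0.05, against 8.17% and 6.95%, and 11 of the 76 genes were called at an adjusted p under 0.1, against 4.63% of all genes. Named after their values were seen, these were Cox6a1, Atp5c1, Cox5b, Atp5b, Ndufb9, Uqcr11, Atp5d, Ndufc1, Atp5g1, Ndufb5 and Ndufa3, all of them lower, with log2 fold changes from -0.56 (Atp5d) to -1.84 (Ndufa3). The call rested on which number was left out. Without both libraries numbered 1, 3 or 4, 0 of the 76 genes were called at an adjusted p under 0.1, against 0.0490%, 0.0163% and 0% of all genes, and Cox6a1 had edgeR adjusted p-values of 0.134, 0.444 and 0.451. In these settings 14, 6 and 9 genes were lower at an unadjusted p under 0.05, against 4.79%, 3.44% and 3.44% of all genes.

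**Figure D2:**
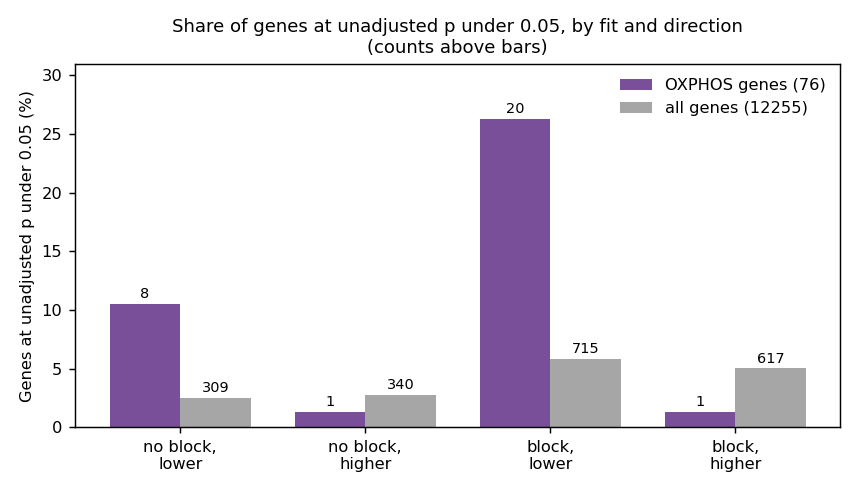
Percent of genes at an unadjusted p under 0.05, by fit and direction, for the 76 oxidative phosphorylation genes (purple) and all 12255 genes (grey), with counts above the bars. Lower genes make up 10.5% of the group without the block and 26.3% with it, against 2.52% and 5.83% of all genes, while higher genes make up 1.32% of the group in both fits.

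The groups did not overlap for 4 genes, all lower in obesity and among them Cox7a2l2, Atp5c1 and Cox8a, against 1.67% of all genes in that direction, and for 0 genes in the higher direction, against 1.84%. Without the block, every one of the 7 core subunits of complex I and the 9 genes of complex IV had a lower estimate, as did 21 of the 25 accessory subunits of complex I, 3 of the 4 complex II subunits, 7 of the 8 complex III genes and 11 of the 13 complex V genes. The median log2 fold change was -0.55 in complex IV, -0.45 in complex V, -0.39 in the complex I core, -0.30 in complex III, -0.24 in the complex I accessory subunits and -0.20 in complex II. With the block these medians were -0.41, -0.44, -0.39, -0.34, -0.28 and -0.28, in the same order. Without the block and without obesity library 2 they were -0.65, -0.56, -0.36, -0.65, -0.40 and -0.16. At an unadjusted p under 0.05 without the block, 1 of 9 genes was lower in complex IV, 2 of 13 in complex V, 2 of 7 in the complex I core, 0 of 8 in complex III, 3 of 25 among the accessory subunits and 0 of 4 in complex II, against 2.52% of all genes. With the block these counts were 4, 6, 2, 2, 5 and 1, against 5.83% of all genes. No test compared the complexes with each other. The median of complex II rested on 4 genes and turned to 0.06 without control library 3 and to 0.03 without obesity library 4. The assembly factors of complex I had a median of -0.04 over 5 genes.

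**Figure D3:**
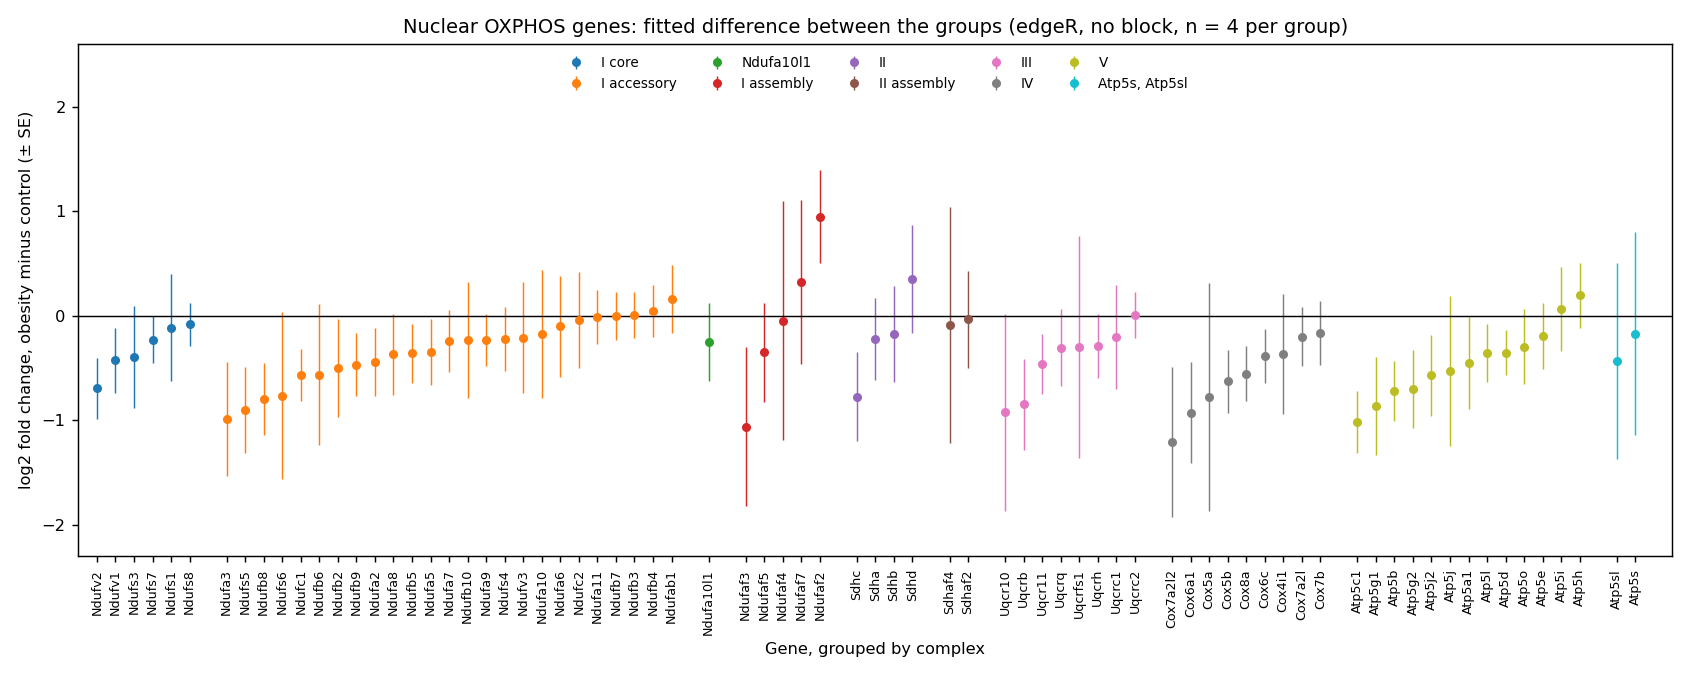
Log2 fold change (obesity minus control, ± SE, edgeR without the block, n = 4 per group) of 75 of the 76 genes, grouped by complex and ordered within it. Most points lie below 0, from -1.21 for Cox7a2l2 to 0.95 for Ndufaf2, and all 9 genes of complex IV lie below 0.

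Promoters of this pathway are known for binding NRF-1, ETS factors such as GABP, and YY1, so the letters of these motifs were searched on both strands in RefSeq promoters of the GRCr8 assembly, from 250 bases before to 50 bases after each start. All 76 genes matched RefSeq, 15 of them through an older symbol, and 66 had a promoter in the table. The NRF-1 core CGCANGCG was in 24 promoters (36.4%), against 17.1% of the 8457 promoters of protein-coding genes in the table and 8.23% of all 27457 promoters. The ETS letters CCGGAAG were in 18 (27.3%), against 16.4% and 9.22%. The YY1 letters AAGATGGCG were in 10 (15.2%), against 3.91% and 1.93%. A match to any of these motifs does not force a match to another. The 42 genes with any of the motifs had a median log2 fold change of -0.23 between the diets and the 24 without had -0.41, so both sets were lower in the median. A match describes the sequence and does not show binding. Sequences with motifs in capitals are printed below for some genes with a match. They were taken from genes at an unadjusted p under 0.05 without the block and genes named by the rule given below. Among those genes, Atp5b, Atp5g1, Ndufaf2, Ndufb3, Ndufc1 and Ndufv2 had no match. Cox6a1, Cox6c and Uqcr11 were among those without a promoter in the table.

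Complex V, the ATP synthase, held the gene with the smallest unadjusted p of the group. Atp5c1 encodes the gamma subunit, the shaft that turns inside the catalytic head. In libraries 1 to 4 it had 203, 171, 105 and 115 reads in control and 59, 101, 61 and 77 in obesity. On the CPM scale every obesity library lay below every control library, with the closest values at 80.2 in obesity library 2 and 82.2 in control library 3. The means were 105 ± 28.3 CPM in control and 52.4 ± 19.7 CPM in obesity (SD, n = 4). The log2 fold change was -1.01 (SE 0.29, unadjusted p 0.00279, edgeR adjusted p 0.904), and with the block the edgeR adjusted p was 0.111. Over all alternative fits its adjusted p ranged from 0.00625 to 0.999. The low end came from the block without both libraries numbered 2, a setting chosen after the data were seen. Nearly all of its reads (96.2%) came from a site on chromosome 17 (Rnor_6.0, plus strand, 72231542 to 72231569). The RefSeq promoter of Atp5c1 holds an NRF-1 match that spans the start, shown here on the plus strand of GRCr8 (chr17:73333667-73333696).
Atp5c1: ccgagctcccgCGCACGCGcagtgagcctc

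Atp5b, the catalytic beta subunit, had 154, 108, 139 and 100 reads in control and 58, 108, 84 and 67 in obesity. Obesity library 2, at 85.8 CPM, lay inside the control range of 69.7 to 109 CPM, and the other obesity libraries lay below it. Its log2 fold change was -0.72 (SE 0.29, unadjusted p 0.0226, edgeR adjusted p 0.904, unadjusted p with the block 0.00737). Atp5b was named after its values were seen. Atp5d, the delta subunit of the central stalk and the most abundant gene of the complex in this assay, had 454, 425, 514 and 394 reads in control and 295, 399, 500 and 290 in obesity. The groups overlapped, at 274 to 402 CPM in control and 192 to 317 CPM in obesity, and the log2 fold change was -0.35 (SE 0.21, edgeR adjusted p 0.912). The unadjusted p was 0.119, and 0.0313 with the block. The partner catalytic subunit Atp5a1, named after its values were seen, was read at 210 reads in all, and its log2 fold change was -0.45 (SE 0.44). Atp5h, at 0.19, and Atp5i, at 0.07, were the genes of complex V with estimates above 0.

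Atp5g1 and Atp5g2 encode the same mature c subunit of the proton-driven ring from different genes. Atp5g1 had 56, 54, 51 and 30 reads in control and 11, 54, 18 and 22 in obesity. Obesity library 2 was above every control on the CPM scale, at 42.9, and the other obesity libraries were at 8.17 to 14.5, below every control. Its log2 fold change was -0.86 (SE 0.47, edgeR adjusted p 0.907), and -1.61 with the block and without both libraries numbered 2 (edgeR adjusted p 0.0566). Atp5g2 had 71, 73, 38 and 77 reads in control and 43, 57, 23 and 37 in obesity. It was lower in 4 of 4 numbers although the groups overlapped, and its log2 fold change was -0.70 (SE 0.37, edgeR adjusted p 0.907). With the block, the unadjusted p went from 0.0822 to 0.0143 for Atp5g1 and from 0.0783 to 0.0183 for Atp5g2. The promoter of Atp5g2 holds an NRF-1 match ending 47 bases before the start (GRCr8, minus strand, chr7:135678230-135678309). Atp5g3, the remaining gene of this family, was not analysed here.
Atp5g2: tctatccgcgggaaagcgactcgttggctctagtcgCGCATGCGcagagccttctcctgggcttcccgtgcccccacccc

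Complex IV, cytochrome c oxidase, held the only gene called with the block. Cox6a1 encodes the isoform of subunit 6a found in most tissues. In libraries 1 to 4 it had 294, 199, 84 and 119 reads in control and 150, 106, 36 and 67 in obesity. The groups overlapped, because levels differed widely between numbers in both diets, yet within each number the obesity library was lower. The means were 123 ± 62.4 CPM in control and 65.1 ± 40.6 CPM in obesity (SD, n = 4). Without the block the log2 fold change was -0.92 (SE 0.48, edgeR adjusted p 0.907), and with the block it was -1.01 (SE 0.21, edgeR adjusted p 0.0940). The number term itself had an edgeR adjusted p of 0.000566 for this gene. Over all alternative fits its adjusted p ranged from 0.00588 to 0.999. That low end, too, came from the block without both libraries numbered 2, a setting chosen after the data were seen. Its main site lay on chromosome 12 (plus strand, 47027476 to 47027518) and took 91.3% of its reads.

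Cox8a, the common isoform of a small membrane subunit, had 100, 91, 116 and 84 reads in control and 55, 69, 95 and 65 in obesity. Scaled to library size the groups separated, at 58.7 to 90.8 CPM in control and 40.8 to 54.8 CPM in obesity. The log2 fold change was -0.55 (SE 0.26, unadjusted p 0.0497, edgeR adjusted p 0.904, unadjusted p with the block 0.0299). Its adjusted p ranged from 0.168 to 0.999 over the alternatives. The promoter of Cox8a, on the minus strand of GRCr8 (chr1:213833624-213833703), holds ETS matches ending 50 and 12 bases before the start.
Cox8a: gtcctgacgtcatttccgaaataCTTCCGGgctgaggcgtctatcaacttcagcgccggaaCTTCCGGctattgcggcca

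Cox5b, a zinc-binding subunit on the matrix side and a gene named after its values were seen, had 203, 182, 233 and 147 reads in control and 90, 162, 207 and 68 in obesity. Numbers 1, 3 and 4 showed lower obesity levels, and number 2 went from 117 CPM in control to 129 CPM in obesity. Its log2 fold change was -0.63 (SE 0.30, unadjusted p 0.0527, edgeR adjusted p 0.904), and the unadjusted p with the block was 0.00316. Cox6c, with 188, 237, 226 and 143 reads in control and 166, 190, 156 and 112 in obesity, was lower in 4 of 4 numbers with overlapping groups, and its log2 fold change was -0.39 (SE 0.26, edgeR adjusted p 0.927), with an unadjusted p of 0.150 and of 0.0450 with the block. Cox7a2l, which encodes a factor that joins complexes III and IV into supercomplexes, had 131, 225, 205 and 170 reads in control and 86, 217, 218 and 148 in obesity. Its groups overlapped and its log2 fold change was -0.20 (SE 0.28, edgeR adjusted p 0.979). Cox4i1, the common isoform of the subunit that starts the assembly around the mitochondrially encoded Cox1, was read only 6, 20, 26 and 18 times in control and 6, 19, 22 and 11 times in obesity, and its log2 fold change was -0.37 with an SE of 0.57 (edgeR adjusted p 0.979). Cox7a2l2 had 10, 13, 11 and 8 reads in control and 3, 4, 6 and 6 in obesity. Its groups did not overlap, at 5.95 to 8.61 and 2.23 to 3.96 CPM, and its log2 fold change was -1.21 (SE 0.72, edgeR adjusted p 0.912). It was named after its values were seen, and reads of such close relatives of Cox7a2l may be shared between genes. The isoforms Cox4i2, Cox6a2, Cox6b1, Cox6b2, Cox7a1, Cox7a2 and Cox8b, and Ndufa4 and Ndufa4l2, were not analysed here.

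**Figure D4:**
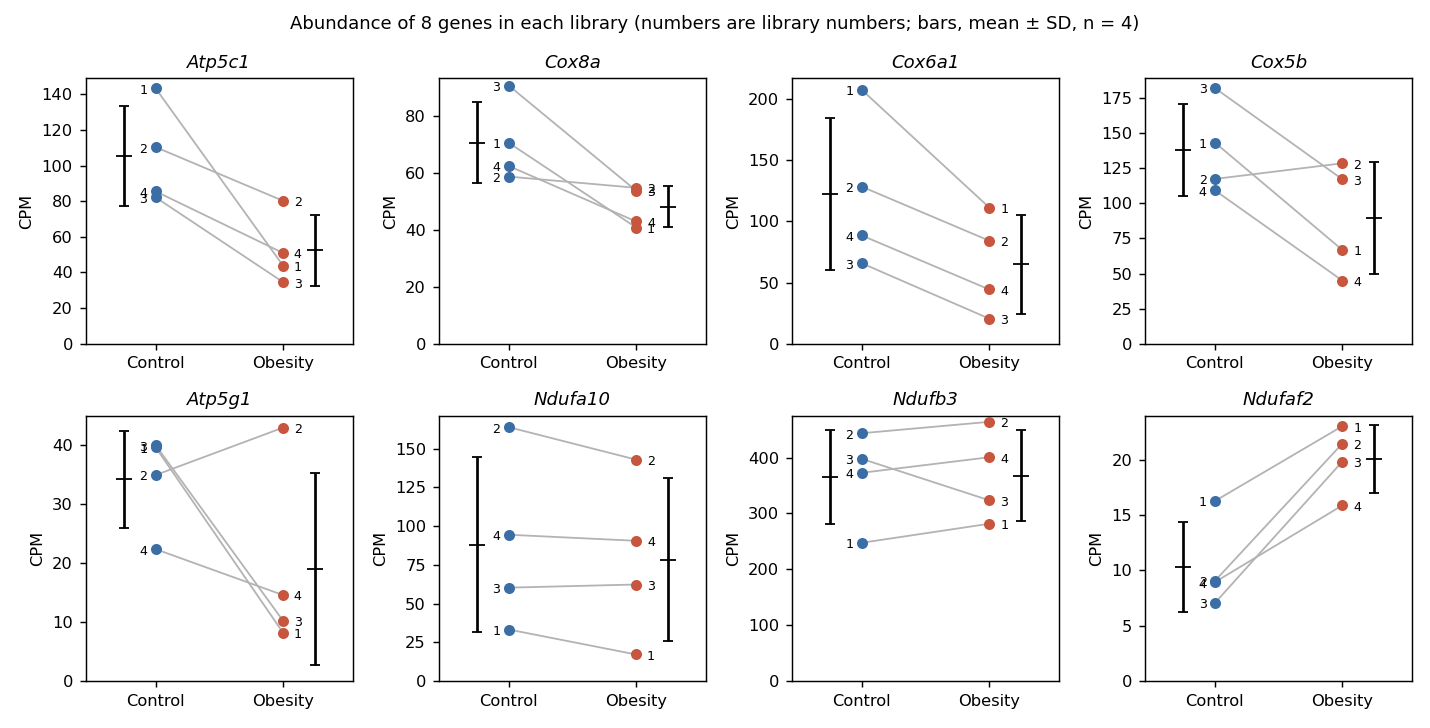
Abundance (CPM) of 8 of the 76 genes in each library, with library numbers beside the points, grey lines joining libraries of the same number, and bars for mean ± SD (n = 4). Atp5c1 and Cox8a do not overlap between the diets, Cox6a1 is lower within each number, Atp5g1 is high in obesity library 2 alone among the obesity libraries, Ndufa10 and Ndufb3 follow the number more than the diet, and Ndufaf2 is higher within each number.

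Complex I, which takes electrons from NADH, had the largest number of genes and the widest spread of estimates. Ndufv2, an iron-sulfur subunit of the electron input module, had 73, 137, 124 and 101 reads in control and 72, 86, 66 and 52 in obesity. The groups overlapped, with control library 1 at 51.6 CPM inside the obesity range of 34.4 to 68.3 CPM. The log2 fold change was -0.69 (SE 0.30, unadjusted p 0.0305, edgeR adjusted p 0.904, unadjusted p with the block 0.0109). Its partner Ndufv1, which binds NADH, had a log2 fold change of -0.42 (SE 0.31). Both were named after their values were seen.

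The most abundant core subunits had smaller estimates. Ndufs7, which carries the last iron-sulfur cluster before quinone, had 512, 311, 518 and 396 reads in control and 336, 391, 473 and 378 in obesity. The obesity libraries, at 249 to 311 CPM, lay within the control range of 201 to 405 CPM, and the log2 fold change was -0.23 (SE 0.22, edgeR adjusted p 0.954). Ndufs8, its neighbour in the chain of clusters and named after its values were seen, had 2867 reads in all, and its log2 fold change was -0.08 (SE 0.20, edgeR adjusted p 0.990).

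Among the 25 accessory subunits, 3 were lower at an unadjusted p under 0.05 (against 2.52% of all genes) and 5 with the block (against 5.83%). The 3 are described here and were named after their values were seen. Ndufb8, of the membrane arm, had 132, 44, 79 and 74 reads in control and 44, 32, 64 and 64 in obesity. Its log2 fold change was -0.80 (SE 0.34, unadjusted p 0.0321, edgeR adjusted p 0.904, unadjusted p with the block 0.0155). It was lower in 4 of 4 numbers, and control library 2 lay within the obesity range. Ndufc1, a small membrane subunit, had 175, 151, 221 and 261 reads in control and 127, 132, 204 and 124 in obesity. Its log2 fold change was -0.57 (SE 0.25, unadjusted p 0.0343, edgeR adjusted p 0.904, unadjusted p with the block 0.0150). On the CPM scale control library 2 lay within its obesity range of 81.9 to 116. Ndufs5, on the intermembrane side, had 86, 83, 38 and 27 reads in control and 40, 35, 20 and 30 in obesity. Control libraries 1 and 2 were high, and control libraries 3 and 4 lay close to the obesity libraries. The log2 fold change was -0.90 (SE 0.41, unadjusted p 0.0418, edgeR adjusted p 0.904, unadjusted p with the block 0.0140). The promoter of Ndufs5 holds an NRF-1 match ending 120 bases before the start (GRCr8, minus strand, chr5:141264487-141264566). That of Ndufb8 holds a YY1 match just past the start (minus strand, chr1:253362897-253362926).
Ndufs5: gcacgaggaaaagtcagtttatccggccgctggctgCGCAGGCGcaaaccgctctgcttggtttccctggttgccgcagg
Ndufb8: cggagaaggtgAAGATGGCGgcgtcccggg

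The gene of the group with the most reads had nearly equal means in both diets. Ndufb3, a membrane-arm accessory subunit, had 350, 687, 508 and 501 reads in control and 379, 584, 571 and 606 in obesity. Its means were 365 ± 83.9 CPM in control and 367 ± 81.1 CPM in obesity (SD, n = 4), and its log2 fold change was 0.01 (SE 0.22, edgeR adjusted p 0.998), with a sign that changed under some settings. Ndufa10, named after its values were seen, had 47, 254, 77 and 127 reads in control and 23, 180, 110 and 137 in obesity. Libraries with the same number resembled each other far more than libraries of the same diet. Its number term had an edgeR adjusted p of 5.99e-05, and its log2 fold change between the diets was -0.18 (SE 0.61). The number term was called at an adjusted p under 0.1 for 10 of the 76 genes (Cox6a1, Ndufa10, Ndufs6, Ndufv3, Cox7b, Atp5sl, Sdha, Cox7a2l, Ndufs1 and Ndufb3), or 13.2%, against 10.1% of all genes.

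The assembly factors of complex I included the only higher gene at an unadjusted p under 0.05. Ndufaf2, a factor of late assembly named after its values were seen, had 23, 14, 9 and 12 reads in control and 31, 27, 35 and 24 in obesity. The groups met on the CPM scale, where control library 1 at 16.3 was just above obesity library 4 at 15.9. Its log2 fold change was 0.95 (SE 0.44, unadjusted p 0.0465, edgeR adjusted p 0.904, unadjusted p with the block 0.0349). Without the block, its unadjusted p was above 0.05 when any of control libraries 2 to 4 or obesity libraries 1 to 3 was left out. Ndufaf3 was at -1.06 (SE 0.76), Ndufaf5 at -0.35, Ndufaf4 at -0.04 and Ndufaf7 at 0.32, on 44 to 146 reads in all.

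Complex II passes electrons from succinate to quinone and is also an enzyme of the tricarboxylic acid cycle. Sdha, its flavin-bearing catalytic subunit, had 85, 72, 114 and 34 reads in control and 42, 46, 149 and 55 in obesity. Obesity library 3, at 84.4 CPM, stood apart from the other obesity libraries at 31.2 to 36.5 CPM, and the log2 fold change was -0.22 (SE 0.39, edgeR adjusted p 0.979). The stretch of the Sdha promoter shown here holds NRF-1 matches ending 80 and 37 bases before the start (GRCr8, plus strand, chr1:30764450-30764529). Sdhb, the iron-sulfur subunit, had 42, 35, 54 and 39 reads in control and 59, 34, 59 and 8 in obesity. Obesity library 4 was far below the rest, and the log2 fold change was -0.17 (SE 0.46, edgeR adjusted p 0.990). Sdhc, a membrane anchor named after its values were seen, was at -0.77 (SE 0.42), with an unadjusted p of 0.0854 and of 0.0445 with the block, and its partner Sdhd at 0.35 (SE 0.51). Sdhaf2, which is needed to attach the flavin to Sdha, had 17, 30, 26 and 24 reads in control and 44, 16, 17 and 20 in obesity, with obesity library 1 high, and its log2 fold change was -0.03 (SE 0.46, edgeR adjusted p 0.997).
Sdha: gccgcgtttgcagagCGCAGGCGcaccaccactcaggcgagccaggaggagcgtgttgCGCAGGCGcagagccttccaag

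Complex III, which hands electrons to cytochrome c, showed lower estimates in 7 of 8 genes, and 0 of the 8 were lower at an unadjusted p under 0.05 without the block (against 2.52% of all genes) and 2, Uqcr11 and Uqcrb, with it (against 5.83%). Uqcr11, a small subunit and the most abundant of the complex here, had 156, 198, 228 and 152 reads in control and 97, 185, 195 and 84 in obesity. Obesity libraries 2 and 3 lay inside the control range of 110 to 178 CPM, library 3 just above its lower end, and the log2 fold change was -0.46 (SE 0.29, edgeR adjusted p 0.912). With the block the unadjusted p was 0.0176. With the block and without both libraries numbered 2 it was -0.78 (edgeR adjusted p 0.0387). Uqcrc2, a core protein of the matrix side, had 120, 142, 131 and 103 reads in control and 121, 124, 142 and 135 in obesity. The groups overlapped nearly completely, with means of 88.9 ± 11 and 89.5 ± 7.38 CPM (SD, n = 4), and the log2 fold change was 0.01 (SE 0.22, edgeR adjusted p 0.998). Uqcrb, named after its values were seen, was at -0.85 (SE 0.44, unadjusted p 0.0695, edgeR adjusted p 0.904), and its unadjusted p with the block was 0.0154.

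After centring each gene on its mean over the 8 libraries, the median deviation was 0.14, 0.22, 0.48 and 0.18 log2 units in control, in library order, and -0.22, 0.19, -0.11 and -0.35 in obesity. In obesity library 2, 26 of the 76 genes lay below their own mean, against 54, 43 and 55 in obesity libraries 1, 3 and 4 and 16 to 29 in the control libraries. Within complex IV the medians were -0.63, 0.32, -0.40 and -0.42 in obesity libraries 1 to 4, and within complex V they were -0.32, 0.20, -0.36 and -0.51. The median over all genes stayed between 0.02 and 0.06 in every library.

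**Figure D5:**
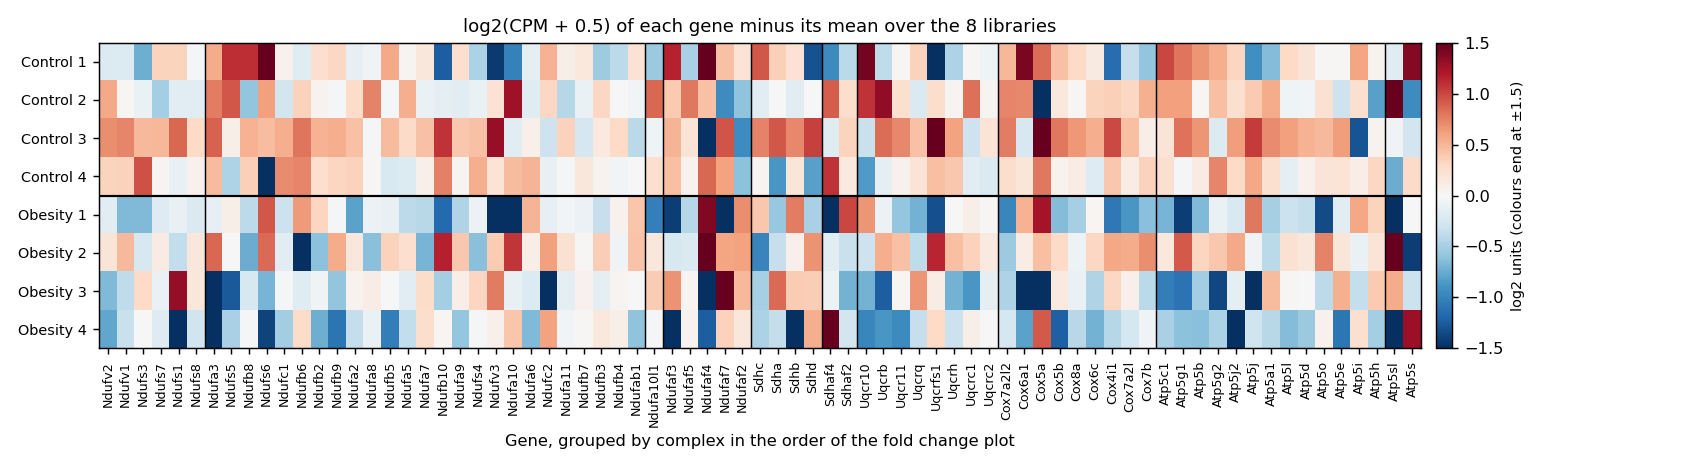
Deviation of 75 of the 76 genes from their own mean over the 8 libraries, in log2(CPM + 0.5) units, with libraries in rows and genes in columns grouped by complex; red is above the mean, blue below, and colours end at ±1.5. Control rows are mostly red and the rows of obesity libraries 1, 3 and 4 mostly blue, while the row of obesity library 2 is mostly red.

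Reads were also tested site by site. Of the 76 genes, 28 had 1 site and 48 had more, up to 9, and in 46 the main site held over 80% of the reads. Of the 184 sites, 8 were lower at an unadjusted p under 0.05 (4.35%), against 1.41% of all 73922 sites, and 0 were higher, against 1.72%. None had an adjusted p under 0.1 (0.00135% of all sites). With the block 25 sites passed an unadjusted p of 0.05, of which 24 were lower and 1 higher, against 3.31% and 2.79% of all sites, and 0 passed the adjusted test (0.00541% of all sites). The count without the block was 25 without obesity library 2, 4 without control library 3 and 5 without control library 4. The groups did not overlap at 8 sites in the lower direction, against 1.69% of all sites, and at 1 in the higher direction, against 1.43%.

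At Sdha a site on chromosome 1 (plus strand, 31571188 to 31571206) had 22, 29, 32 and 18 reads in control and 7, 10, 23 and 5 in obesity. Its groups did not overlap on the CPM scale, which was a condition of the rule that picked the site. It held 36.8% ± 12.5 of the reads of Sdha in control and 15.7% ± 5.2 in obesity (SD, n = 4). The gene sum of Sdha had a log2 fold change of -0.22, with obesity library 3 at 84.4 CPM and the other obesity libraries at 31.2 to 36.5. That estimate ran from -0.67 to 0.11 when each library was left out in turn. The whole-gene test of site usage did not single out Sdha (unadjusted p 0.778, and 0.205 with the block). That test (edgeR diffSpliceDGE) gave 1 of 48 genes at an unadjusted p under 0.05, Sdhaf2 at 0.0367, against 1.84% of 8276 genes, and 0 after adjustment, against 0.0121%. Sdhaf2 had a site on the minus strand with 15, 25, 26 and 24 reads in control and 10, 15, 14 and 13 in obesity, and a site on the plus strand with 2, 5, 0 and 0 reads in control and 34, 1, 3 and 7 in obesity. Without the plus-strand site its log2 fold change was -0.86, and with the block the count of genes with changed usage was 0, against 3.08% of genes tested.

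Other genes tied to the pathway were read from lists chosen with earlier results of these data known. Of 35 further nuclear genes of the respiratory chain (cytochrome c1, assembly and inhibitor genes), 26 were in the table. Of these, 15 had lower and 11 higher estimates, with a median log2 fold change of -0.25, and 3 were lower and 0 higher at an unadjusted p under 0.05 (against 2.52% and 2.77% of all genes). With the block 5 were lower and 1 higher, against 5.83% and 5.03%. The 3 were Cyc1, Usmg5 and Timmdc1. Cyc1, the cytochrome of complex III, was at -0.79 (SE 0.33, unadjusted p 0.0271, and 0.00803 with the block). Usmg5, a small protein that stabilises the ATP synthase, was at -0.86 (SE 0.34, unadjusted p 0.0225, and 0.00207 with the block). Timmdc1, a complex I assembly factor, was at -1.41 (SE 0.67, unadjusted p 0.0495) and missed that threshold with the block (p 0.0604). Among the 15 genes of the tricarboxylic acid cycle present, of 16 listed, the median was 0.08, and 9 were higher and 6 lower in estimate. Suclg2, a subunit of succinyl-CoA ligase, was the only gene of that list at an unadjusted p under 0.05, at 1.34 (SE 0.59, unadjusted p 0.0363). Over all genes 2.77% were higher and 2.52% lower at that threshold. With the block the unadjusted p of Suclg2 was 0.0511. In that fit 0 genes of the list were past 0.05 in either direction, against 5.03% higher and 5.83% lower of all genes. Of 11 regulators of mitochondrial biogenesis, 9 were present with a median of -0.21. Of these, 0 were past an unadjusted p of 0.05 in either direction, with or without the block, against the same shares of all genes. Picked after their values were seen, Ppargc1a, the coactivator PGC-1alpha, was at -0.19 (SE 0.36), Nrf1 at 0.28 (SE 0.26) and Tfam at -0.65 (SE 0.60).

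The 13 protein-coding genes of the mitochondrial genome, which encode the partner subunits of complexes I, III, IV and V, had a median log2 fold change of -0.04. COX3 was lower at -0.55 (SE 0.25, unadjusted p 0.0379), and ND6, which is read from the opposite strand to the rest, was higher at 0.87 (SE 0.29, unadjusted p 0.00821). Both stayed under 0.05 with the block (0.00598 and 0.000785), where ND5, at -0.31 without the block (unadjusted p 0.168), was also lower (unadjusted p 0.0321). None of the 3 passed the adjusted test in either fit. The 9 nuclear genes of complex IV had a median of -0.55 without the block and -0.41 with it. Their mitochondrial partners COX1, COX2 and COX3 were at -0.04, -0.25 and -0.55 without the block.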

How the data were processed

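The 8 WTTS-seq libraries of rat hypothalamus, 4 per diet, were analysed from a deposited table of raw read counts per polyadenylation site. The submitters' processing notes name Bowtie2 2.2.3 and Rnor_6.0. The steps of read trimming, site clustering and gene assignment are not given in the sources used here. The deposited counts were not normalized by the authors, and the lowest site total was 30 reads. A row without a site (1 row) was left out throughout, and 273 sites with a punctuation mark as symbol were left out of gene sums. The table held 73922 sites, 65913 of them with a gene.

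Counts were summed per gene over all sites, on both strands, and tested with edgeR 4.0.16 (TMM, robust quasi-likelihood F test, R 4.3.3) over all 12255 genes, with Benjamini-Hochberg adjustment and a threshold of 0.1. The standard error was the absolute log2 fold change over the square root of F. CPM used TMM-scaled totals of gene reads. Site usage was tested with diffSpliceDGE, and DESeq2 1.42.0 was an alternative. No filter on low counts was applied. All 76 genes were tested, 10 of them with under 100 reads and 4 with 0 reads in some library, where 0 allows up to 3 reads. The median gene of the group had 410.5 reads, against 235 over all genes. The sums used both strands, and 4 sites in 4 genes lay on the strand with fewer reads of their gene, where antisense transcripts may be counted. In Ndufs3 that site, with 65 reads, was also the largest single site of the gene. Reads of processed pseudogenes or close paralogues may be shared.

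Deviations from the group mean correlated at 0.261 to 0.376 between same-numbered libraries and at -0.22 to 0.0884 between others (8341 genes), over 0.1 in 4 of 4 pairs. On this basis same-numbered libraries were treated as pairs. The reported fit has no block, and the text gives blocked counts beside it. Where an unadjusted p of a gene sum is printed, a p-value or adjusted p-value with the block is also given. Chi-square per site over 28 pairs of libraries was 2.86 or more, so no library was counted as a repeat of another. Scripts were tested on simulated counts with 200 changed genes.

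The genes and lists were chosen with earlier results of these data known. Named genes were, in each complex, the 2 with the highest mean CPM, the 5 lower and 5 higher genes with the smallest p among those with a mean of at least 10 CPM and no overlap of groups (sites likewise, 3 each), genes called at an adjusted p under 0.1, listed isoforms, and up to 3 genes with a site usage p under 0.05. A gene that the rule names is not reported here. Any other gene was said to be named after its values were seen. Alternatives were the scaling, the tool, a low-count filter, the main strand only, the replicate block, and leaving out each library. Leaving out both libraries of a number, and the test of the number term, were added after the data were seen.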

Additional observations from a re-analysis of the deposited data

Results flagged for a closer look

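In groups of 4 libraries, a library was taken as standing apart when its gap to the nearest other library was large beside the group's range (Dixon's criterion at 95%). Chance flags about 1 in 20 groups, and 38 checks gave 3 such libraries where about 2 would be reached by chance. In obesity library 2 the mitochondrial chromosome took 6.99% of the reads, against 3.85% to 4.34% in the other obesity libraries. This is also the obesity library whose nuclear oxidative phosphorylation share, 0.428%, lay within the control range and which held 87 reads of Gh1. Sdha stood at 84.4 CPM in obesity library 3, against 31.2 to 36.5 CPM in the other obesity libraries. Sdhaf2 stood at 32.7 CPM in obesity library 1, against 9.63 to 13.2 CPM in the others, and 34 of its 44 reads there came from the site on the plus strand.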

How the results depend on the processing

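Without the block, the scaling by DESeq2 size factors, the DESeq2 Wald test, the low-count filter and the main strand kept the median of the 76 genes at -0.35, and leaving out each library in turn gave -0.52 to -0.26. The replicate block took the genes called at an adjusted p under 0.1 from 0 to 1, the lower genes at an unadjusted p under 0.05 from 8 to 20, the sites from 8 to 25 and the genes with changed site usage from 1 to 0, and the low-count filter also took the last to 0. The replicate block changed no other call at an adjusted p under 0.1, and the counts at an unadjusted p under 0.05 stand with the results. In settings chosen after the data were seen, the block without both libraries numbered 2 gave 11 called, 26 lower and 0 higher genes. Without both numbered 1, 3 or 4 it gave 14, 6 and 9 lower genes, 1, 0 and 0 higher genes and 0 called genes, so the call of Cox6a1 was lost, and without both numbered 3 the median of complex IV was -0.21. Leaving out each library gave 3 to 18 lower genes, 0 to 1 higher genes, 0 called genes, 4 to 25 sites and 0 to 3 genes with changed usage, while medians ran from -0.42 to -0.26 in the complex I accessory subunits, -0.57 to -0.23 in the core, -0.48 to 0.0604 in complex II, -0.65 to -0.25 in complex III, -0.65 to -0.26 in complex IV and -0.61 to -0.23 in complex V. Of 289 values for 17 named genes, 260 kept direction and side of the threshold, 6 passed it and 23 changed sign. With the block and without both libraries of a number, Ndufb3 was at -0.0523 (number 1), -0.012 (number 2) and -0.017 (number 4), Uqcrc2 at -0.0206, -0.026 and -0.0553 (the same numbers), Sdha at 0.0025 (number 1), Sdhaf2 at 0.14 (number 3) and Sdhb at 0.15 (number 4). Leaving out each library, Ndufb3 ran from -0.16 to 0.11, Sdha from -0.67 to 0.11, Sdhaf2 from -0.56 to 0.16, Sdhb from -0.49 to 0.17 and Uqcrc2 from -0.0559 to 0.0836. The cause of these changes was not tested. Genes with under 100 reads in all, of which there were 10, had standard errors up to 1.14 log2 units.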

Other observations

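Among symbols of these families that the rule left out by their biotype, Atp5h-ps1, listed as a pseudogene, had 68, 51, 63 and 34 reads in control and 41, 34, 88 and 28 in obesity, and its log2 fold change was -0.30 (SE 0.36, edgeR adjusted p 0.975). Ndufb1, listed as lncRNA, had 35, 22, 15 and 13 reads in control and 15, 27, 21 and 27 in obesity, and its log2 fold change was 0.04 (SE 0.46, edgeR adjusted p 0.997).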
